A study of Homo sapiens with 6 samples.

Results

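The WNT pathway was followed in LNCaP-AI cells through 50 genes that encode its ligands, receptors, transducers, nuclear factors and feedback targets. The genes were listed by symbol and role, and each was found through its Ensembl identifier in the 6 library tables, so that 50 of 50 listed genes were located among 20308. Cyclin Y and its kinase CDK14 were left out of the set. The roles comprised 4 genes for ligands and their export, 13 receptors and co-receptors, 4 genes of receptor turnover, 6 Dishevelled proteins and casein kinases, 5 members of the destruction complex, 11 genes for beta-catenin and its nuclear partners, and 7 feedback targets.

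WNT proteins are lipid-modified by PORCN and carried out of the cell by WLS. They bind a Frizzled receptor together with LRP5 or LRP6, which draws Dishevelled to the membrane and inhibits a complex of AXIN1, APC, GSK3 and casein kinase 1 that otherwise marks beta-catenin for degradation. Stabilised beta-catenin then binds TCF and LEF factors in the nucleus, while other ligands act through ROR and RYK receptors without beta-catenin, and both routes have been studied in the progression of prostate cancer to castration resistance.

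LNCaP-AI is an androgen-independent derivative of the prostate line LNCaP and serves as a model of castration-resistant prostate cancer. The series compared cells that stably carried a lentiviral hairpin against METTL1 (shMETTL1) with cells that carried a scrambled hairpin (shscramble), and the labels give androgen deprivation therapy as the treatment of both groups. There were 3 libraries per group, and METTL1 encodes a methyltransferase that places N7-methylguanosine on RNA. The comparison asks which mRNAs differ when METTL1 is silenced in a single cell line. The study lists a single target sequence for shMETTL1, and the series holds no rescue group. Loss of METTL1 therefore cannot be told apart from other differences between the cells of the groups. The labels leave unsaid if libraries of the same group stem from separate cultures. The p-values thus measure only the spread between these libraries, which may be technical.

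For every gene, each library had an estimated count and a value in FPKM, a level relative to transcript length and sequencing depth. The estimated counts summed to between 3389897 and 3604835 per library. METTL1 measured 13.9, 18.5 and 21.0 FPKM in shscramble and 8.35, 10.5 and 8.18 FPKM in shMETTL1, so its mean stood at 50.7% of the control, with no overlap between groups. The exact two-sided permutation test of the METTL1 means gave p = 0.1, the smallest value that 3 libraries against 3 can give. By edgeR on the estimated counts METTL1 fell by 1.37 on the log2 scale (Benjamini-Hochberg adjusted p = 0.028), a call that was lost without shscramble replicate 3, shMETTL1 replicate 1 or shMETTL1 replicate 3. By limma on the FPKM values METTL1 had a log2 difference of -0.93 and was not called (adjusted p = 0.127). CDK14 had a mean of 142 FPKM in shscramble and 61.5 FPKM in shMETTL1 (exact permutation p = 0.1). Its log2 difference was -0.95 by edgeR (adjusted p = 0.000229) and -1.18 by limma, which did not call it (adjusted p = 0.0542).

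The luminal identity of the cells was checked against 12 markers, and all 12 passed the filter on low values. The summed level of the luminal markers was 2764 to 2829 FPKM in shscramble and 2293 to 2546 FPKM in shMETTL1. KLK3, which encodes prostate-specific antigen, fell by 0.64 on the log2 scale by edgeR (adjusted p = 0.00133). KLK2 and TMPRSS2 were also called lower by edgeR, 3 of the 12 markers in all, where 4.05% of all genes were called lower. The edgeR call of TMPRSS2 held in 3 of the 6 fits that left out a library. KLK2 was also called by limma (adjusted p = 0.0356), a call that held in 1 of those 6 fits. The part of these marker differences in the WNT results was not tested. The basal marker KRT5, the neuroendocrine markers CHGA, NCAM1 and INSM1, the fibroblast markers DCN and LUM, the endothelial markers CDH5 and KDR and the leukocyte markers PTPRC and CD3E were at 0 in all 6 libraries. Over the 6 libraries the fibroblast list summed to between 9.63 and 16.3 FPKM, the basal list to between 15.2 and 26.4 FPKM, mostly DST, and the neuroendocrine list to between 17.1 and 27.0 FPKM, mostly ENO2, with overlapping groups. Within the fibroblast list ACTA2, smooth muscle actin, measured 1.70, 2.30 and 1.10 FPKM in shscramble and 5.08, 4.51 and 5.07 FPKM in shMETTL1, without overlap and without a call (adjusted p = 0.125 by limma and 0.132 by edgeR), and its part in the WNT results was not tested. The endothelial list reached at most 0.22 FPKM and the leukocyte list at most 0.994 FPKM. In bulk libraries such as these, fewer cells that express a gene and less RNA of that gene per cell cannot be told apart. Leaving out shscramble replicate 2 raised the number of genes called by edgeR from 781 to 2172, and members whose call by limma or edgeR changed without this library are named as such.

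Of the 50 members, 43 reached a mean of 0.5 FPKM and were tested by limma on log2(FPKM + 0.5), and 42 passed the count filter of edgeR. The 7 members under that level were FZD8, LGR5, TCF7, TCF7L1, NOTUM, DKK1 and SP5. By limma 0 of 43 members were called at an adjusted p under 0.05, where 0.123% of all 12156 genes tested were called. At an unadjusted p under 0.05, limma found 5 members, namely FZD4, FZD5, FZD6, DVL2 and TCF7L2, against 14.2% of all genes. With the additional fold change above 1.5 that the study used for its screen, FZD5, FZD6 and DVL2 remained, 3 of 43, against 8.97% of all genes.

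The edgeR fit on estimated counts called 4 of 42 members, and all 4 were Frizzled receptors, where 6.94% of 11248 genes were called. FZD4 and FZD5 rose, 2 of 42 members against 2.89% of all genes, and FZD3 and FZD6 fell, 2 of 42 against 4.05% of all genes. Set against this background, the number of called members is not a result about the pathway as a whole, and what follows concerns single genes. Over the 43 members tested by limma the median log2 fold change was 0.09, with 26 positive and 17 negative values, beside a median of 0.02 over all genes tested. The FPKM values of the groups did not overlap for 11 of the 43, against 19.8% of all genes tested. Of these, WNT7B, FZD6, RYK and TCF7L2 were lower and FZD4, FZD5, DVL2, DVL3, AXIN1, GSK3A and NKD2 higher in shMETTL1.

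**Figure D1:**
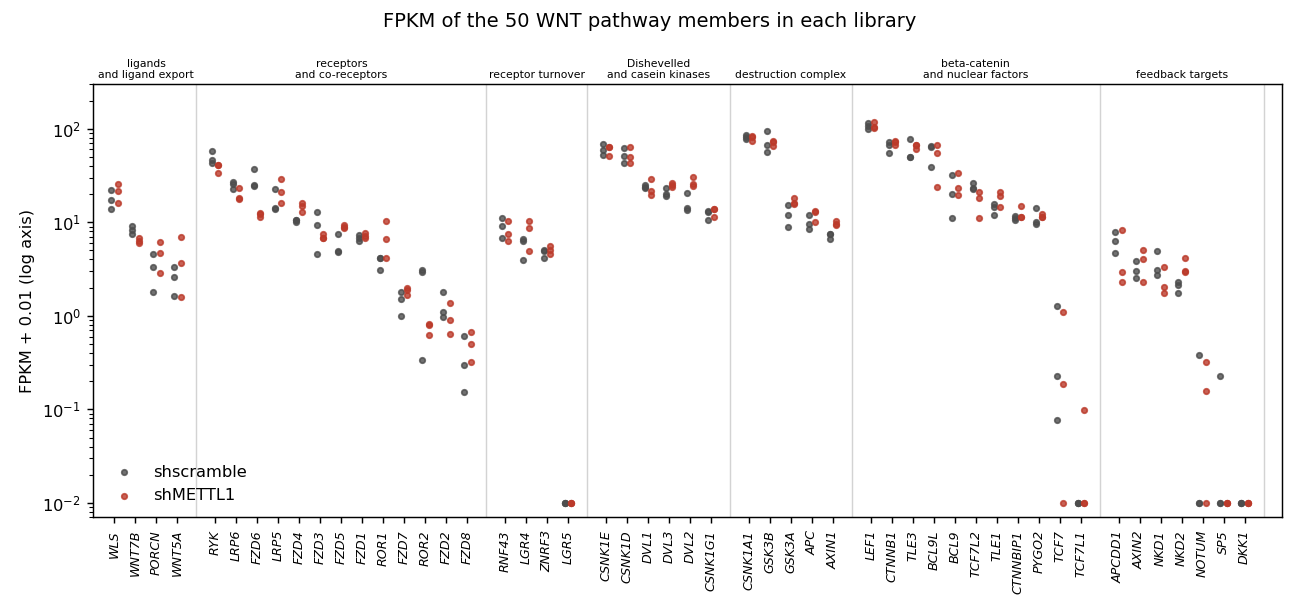
FPKM plus 0.01 (log axis) of the 50 members in each shscramble (grey) and shMETTL1 (red) library, grouped by role and ordered by mean level within a role. LEF1 was the most abundant member at 99.0 to 118 FPKM, and LGR5 and DKK1 were at 0 in every library.

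**Figure D2:**
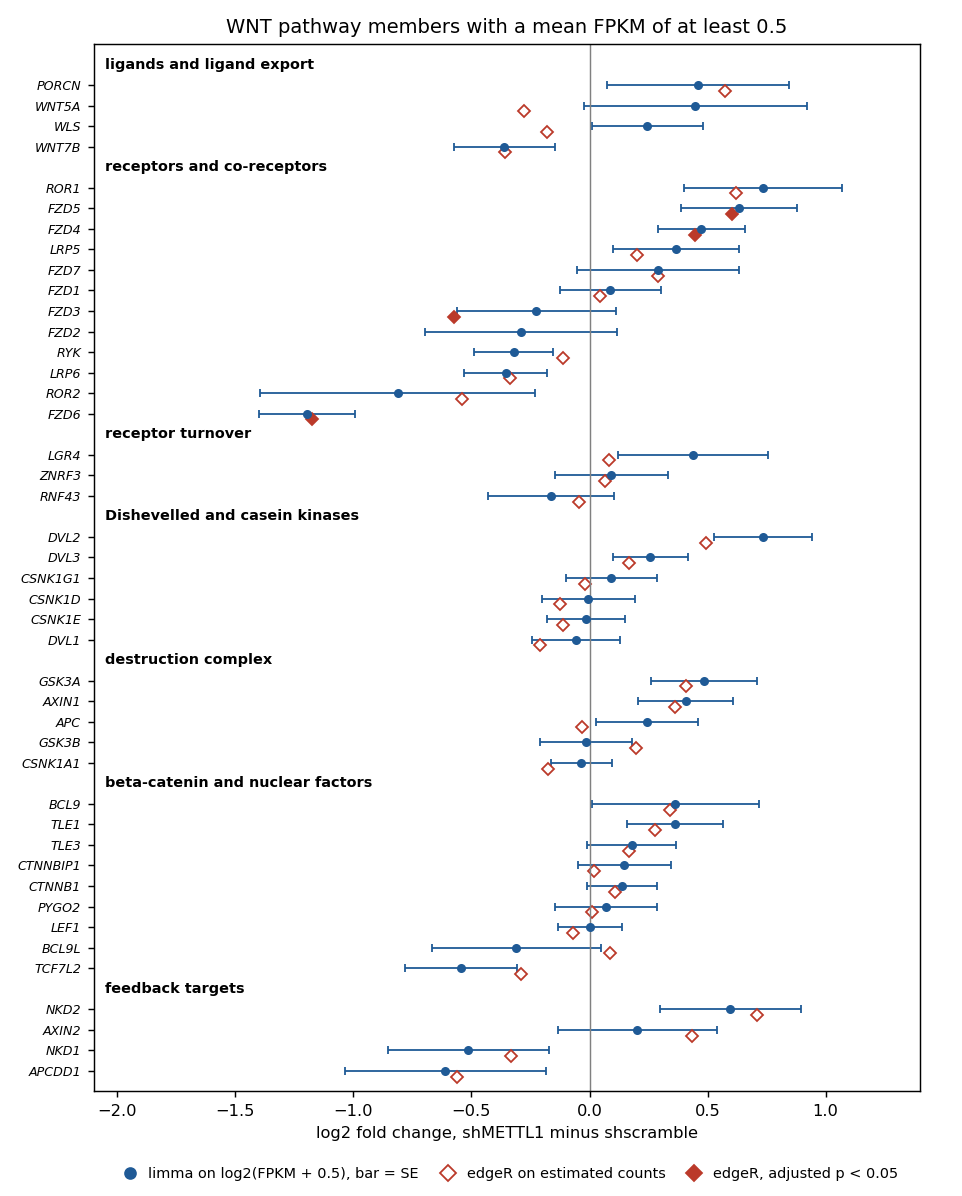
Log2 fold change (shMETTL1 minus shscramble) for 43 members tested by limma on FPKM (circles, bars are standard errors) and of the 42 tested by edgeR on estimated counts (diamonds, filled at an adjusted p under 0.05). The filled diamonds are FZD5 and FZD4 on the positive side and FZD3 and FZD6 on the negative side.

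The Frizzled family, the seven-pass receptors that bind WNT through a cysteine-rich domain, held the 4 members called by edgeR. FZD6 (ENSG00000164930), a receptor best known for planar cell polarity and signalling without beta-catenin, measured 36.8, 24.9 and 24.2 FPKM in shscramble and 12.1, 12.5 and 11.4 FPKM in shMETTL1. All 3 knockdown libraries lay below all 3 controls, and the mean fell from 28.7 ± 7.09 to 12.0 ± 0.60 FPKM (SD, n = 3), which is 41.9% of the control. On the log2(FPKM + 0.5) scale the difference was -1.20 (SE 0.20), and limma gave an adjusted p = 0.0643. The estimated counts were 392, 343 and 299.7 in shscramble and 155, 176 and 145 in shMETTL1. By edgeR FZD6 fell by 1.18 on the log2 scale (adjusted p = 9.77e-05), and this call held in each of the 6 fits that left out a library. Without shscramble replicate 2, limma called FZD6 as well (adjusted p = 0.043, against 0.0643 with all libraries and 0.23 at the highest over its alternatives). An exon of the antisense transcript BAALC-AS1 shares 138 bases with FZD6, and since the strand of the counting is not given in the sources used here, reads of the antisense transcript cannot be told apart from those of FZD6 in that stretch.

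FZD4 (ENSG00000174804), a receptor for WNT and for the ligand norrin, measured 10.7, 10.4 and 10.1 FPKM in shscramble and 15.0, 16.1 and 13.0 FPKM in shMETTL1. The 3 control libraries lay within 1 FPKM of each other and the 3 knockdown libraries all stood above them, at a mean of 141% of the control. By edgeR FZD4 rose by 0.45 on the log2 scale (adjusted p = 0.0317), while limma gave a log2 difference of 0.47 (SE 0.18, adjusted p = 0.309). The edgeR call was lost without shscramble replicate 3, shMETTL1 replicate 1 or shMETTL1 replicate 2, with adjusted p between 0.126 and 0.172 by edgeR in those fits. FZD4 shares 1399 exon bases with PRSS23 on the opposite strand, a gene at a mean of 4.12 FPKM, so part of its reads may belong to that neighbour.

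FZD5 (ENSG00000163251), a receptor that signals through beta-catenin, measured 4.75, 7.56 and 4.89 FPKM in shscramble and 9.44, 8.66 and 8.86 FPKM in shMETTL1. Again every knockdown library exceeded every control library, with shscramble replicate 2 nearest to the knockdown group. By edgeR FZD5 rose by 0.61 on the log2 scale (adjusted p = 0.027), and limma gave 0.63 (SE 0.24, adjusted p = 0.305). Of the 6 edgeR fits that left out a library, only the fit without shscramble replicate 2 called FZD5 (adjusted p = 0.000344), and the other 5 gave adjusted p between 0.0826 and 0.16 by edgeR.

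The 2 receptors that rose have entries among the RefSeq promoter windows used here, and the 250 bases before their start sites are shown for these called members, FZD3 and FZD6 having no entry. GC boxes (GGGCGG on either strand, overlapping matches counted separately), the letters bound by SP1 and related factors, are in capitals. The FZD4 window lies at chr11:86955396-86955645 on the minus strand of GRCh38.p14 and holds 6 GC boxes, and the FZD5 window lies at chr2:207769907-207770156 on the minus strand and also holds 6. Over windows that include 50 bases after the start site, a GC box occurred in 66.1% of the windows of genes tested, in 45% of 35116 windows of all genes and in 65.3% of 49 windows of the members. The letters are a description of the reference sequence, which is the GRCh38 build, while the deposited values were made on hg19.
FZD4: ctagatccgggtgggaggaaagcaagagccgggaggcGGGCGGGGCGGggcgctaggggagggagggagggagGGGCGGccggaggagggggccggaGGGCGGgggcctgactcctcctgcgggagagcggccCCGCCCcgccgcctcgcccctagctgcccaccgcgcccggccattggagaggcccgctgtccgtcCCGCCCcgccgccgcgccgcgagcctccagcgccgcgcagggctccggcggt
FZD5: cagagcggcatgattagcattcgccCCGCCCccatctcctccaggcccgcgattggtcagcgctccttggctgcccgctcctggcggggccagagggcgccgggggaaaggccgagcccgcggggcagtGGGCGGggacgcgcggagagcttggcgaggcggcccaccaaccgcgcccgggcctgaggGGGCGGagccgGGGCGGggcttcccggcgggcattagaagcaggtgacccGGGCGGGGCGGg

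FZD3 (ENSG00000104290), another receptor of planar polarity, differed by count but not by FPKM. Its estimated counts were 262, 377 and 370.4 in shscramble and 253, 230.5 and 216 in shMETTL1, with no overlap between the groups. By edgeR FZD3 fell by 0.57 on the log2 scale (adjusted p = 0.0178). In FPKM the 3 control libraries spread from 4.60 to 12.9 and enclosed the knockdown values of 6.80, 6.69 and 7.44, and limma gave a log2 difference of -0.23 (SE 0.34, adjusted p = 0.791). The count per FPKM of FZD3, which depends on the transcript length assigned to it, ranged from 28.7 to 56.9 over the libraries, while that of FZD4 stayed between 31.7 and 31.8. Of the 6 edgeR fits that left out a library, those without shscramble replicate 1 and without shscramble replicate 2 called FZD3, and the other 4 gave adjusted p between 0.0519 and 0.129 by edgeR.

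The 4 remaining Frizzled receptors showed no call in either fit. FZD1 lay between 6.25 and 7.73 FPKM, FZD7 between 0.990 and 1.96, FZD2 between 0.624 and 1.79 and FZD8 between 0.142 and 0.668, and each overlapped between the groups. FZD2 did not pass the count filter of edgeR, and FZD8 was tested in neither fit.

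The summed FPKM of the 8 Frizzled genes was 65.5, 63.6 and 61.4 in shscramble and 53.3, 55.2 and 50.9 in shMETTL1, without overlap. FZD6 made up 45.0 ± 9.80% of this sum in shscramble and 22.6 ± 0.23% in shMETTL1 (SD, n = 3). The share of FZD4 was 16.4 ± 0.08% in shscramble and 27.6 ± 1.84% in shMETTL1, and that of FZD5 was 9.03 ± 2.49% and 16.9 ± 1.09%. In every control library FZD6 was the most abundant Frizzled by FPKM, and in every knockdown library FZD4 was. The ratio of FZD6 to FZD4 in FPKM was 3.46, 2.39 and 2.40 in the controls and 0.808, 0.779 and 0.873 in the knockdown libraries. These shares and ratios were given no test of their own and restate, on another scale, the values of the single receptors.

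**Figure D3:**
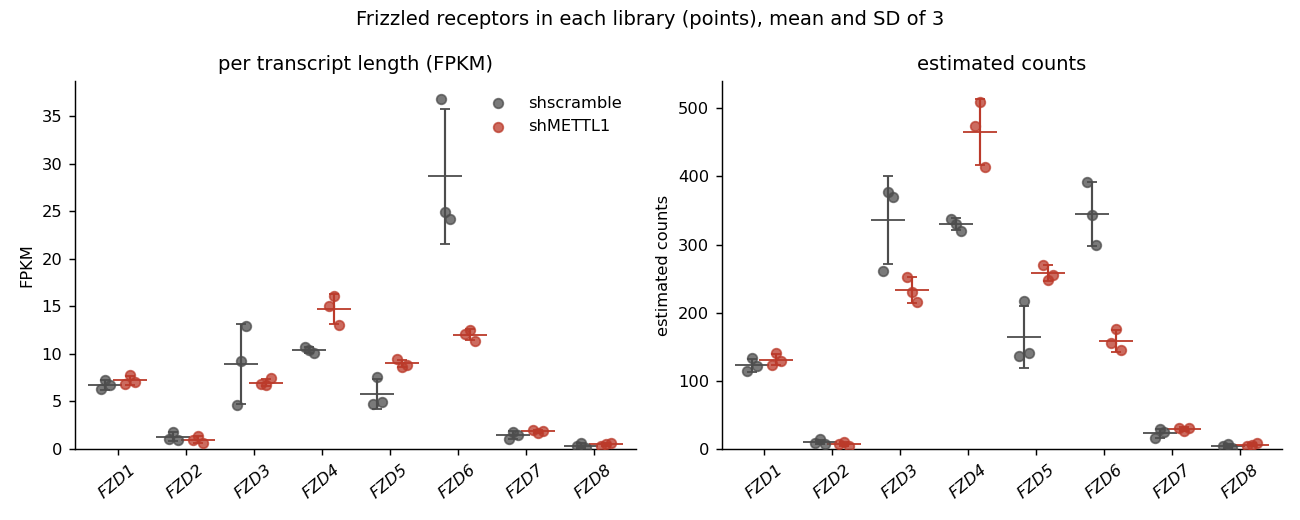
FPKM (left) and estimated counts (right) of the 8 Frizzled receptors in each shscramble (grey) and shMETTL1 (red) library, with the mean and SD of 3. FZD6 is lower and FZD4 and FZD5 are higher in all 3 knockdown libraries on both scales, and FZD3 separates only in the counts.

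**Figure D4:**
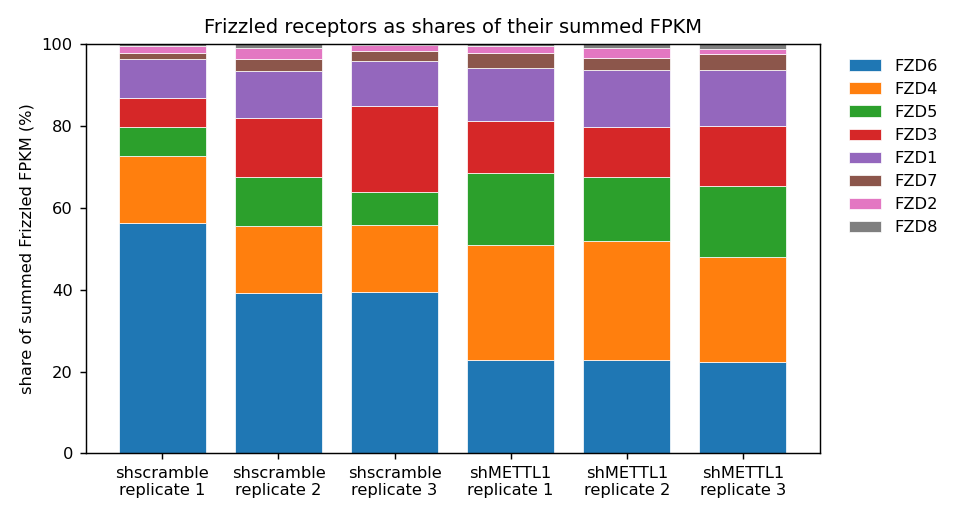
Share of each receptor in the summed Frizzled FPKM (percent) of each library, from FZD6 at the bottom to FZD8 at the top. FZD6 takes 39.2% to 56.3% in the shscramble libraries and 22.3% to 22.7% in the shMETTL1 libraries.

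The co-receptors LRP5 and LRP6, which carry the phosphorylated motifs that dock AXIN1, were not called. LRP6, the more abundant of the pair over all libraries, measured 25.5, 27.0 and 22.7 FPKM in shscramble and 17.8, 22.9 and 18.0 FPKM in shMETTL1. The groups overlapped by shMETTL1 replicate 2, and the log2 difference of -0.35 (SE 0.18) had an adjusted p = 0.395 by limma. By edgeR LRP6 had a log2 difference of -0.34 (adjusted p = 0.105), and it was called only without shscramble replicate 2 (adjusted p = 0.0065). LRP5 lay between 14.0 and 29.1 FPKM with overlapping groups. LRP6 made up 60.3 ± 5.21% of the summed FPKM of the pair in shscramble and 47.8 ± 8.19% in shMETTL1, and by estimated counts the ratio of LRP6 to LRP5 overlapped between the groups.

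Among the receptors that act without beta-catenin, RYK, a catalytically inactive kinase, was the most abundant. It measured 42.7, 45.7 and 57.0 FPKM in shscramble and 40.9, 34.0 and 40.8 FPKM in shMETTL1. The groups did not overlap in FPKM but did overlap in estimated counts, and RYK was called neither by limma (log2 difference -0.32, SE 0.17, adjusted p = 0.416) nor by edgeR (adjusted p = 0.679). ROR1, a receptor for WNT5A, measured 4.15, 4.13 and 3.10 FPKM in shscramble and 10.3, 6.68 and 4.11 FPKM in shMETTL1. Its highest values were in shMETTL1 replicates 1 and 2, while replicate 3 stood at the control level, and the log2 difference of 0.73 (SE 0.34) had an adjusted p = 0.364 by limma. In estimated counts ROR1 stood at 51.4, 55.6 and 51.2 in shscramble and 99.3, 89.9 and 62.6 in shMETTL1 without overlap, and edgeR gave a log2 difference of 0.62 (adjusted p = 0.102). ROR2 was low, between 0.326 and 3.10 FPKM, with shscramble replicate 3 at the lowest value. The summed FPKM of the 13 receptors and co-receptors was 155 to 166 in shscramble and 139 to 143.5 in shMETTL1 without overlap, and no test was run on this sum.

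The ligand genes were at low to moderate levels. WLS, which escorts WNT proteins to the surface, was the most abundant at 21.9, 13.8 and 17.4 FPKM in shscramble and 25.8, 16.0 and 21.5 FPKM in shMETTL1, with overlap and no call (adjusted p = 0.662 by limma and 0.658 by edgeR). WNT7B, a ligand that can signal through beta-catenin, lay between 7.41 and 9.19 FPKM in shscramble and between 5.95 and 6.80 FPKM in shMETTL1. These groups did not overlap, yet WNT7B was not called by limma (log2 difference -0.36, SE 0.21, adjusted p = 0.478) or by edgeR (adjusted p = 0.209). WNT5A, a ligand of ROR and FZD receptors, ranged from 1.56 to 6.95 FPKM and PORCN, the acyltransferase of WNT proteins, from 1.77 to 6.07 FPKM, both with overlap.

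Of the genes that set receptor turnover, RNF43 and ZNRF3 encode membrane ubiquitin ligases that remove Frizzled from the surface, and LGR4 and LGR5 encode receptors for the R-spondins that restrain them. RNF43 measured 11.0, 6.82 and 9.03 FPKM in shscramble and 10.2, 7.45 and 6.23 FPKM in shMETTL1, and the groups overlapped. ZNRF3 lay between 4.14 and 5.50 FPKM and LGR4 between 3.97 and 10.2 FPKM, again with overlap. None of these 3 was called in either fit, their limma adjusted p lying between 0.558 and 0.892, and LGR5 was listed at 0 in all 6 libraries. RNF43 shares 143 exon bases with SUPT4H1, a gene at a mean of 28.9 FPKM on the same strand. It also shares 4326 exon bases with AC004687.2 on the same strand and 1521 with TSPOAP1-AS1 on the opposite strand, genes without values here. The level of RNF43 is thus uncertain.

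The Dishevelled proteins relay the signal from Frizzled to the destruction complex. DVL1 measured 23.0, 24.1 and 24.8 FPKM in shscramble and 19.7, 28.8 and 21.4 FPKM in shMETTL1, with overlap. DVL2 (ENSG00000004975, chr17:7225341-7234545 in GENCODE v29 on GRCh38) measured 14.3, 20.8 and 13.4 FPKM in shscramble and 30.6, 25.5 and 24.5 FPKM in shMETTL1. Every knockdown library stood above every control library for DVL2, and its mean was 166% of the control. The log2 difference of 0.74 (SE 0.21) had an unadjusted p = 0.00608 and an adjusted p = 0.178 by limma, and edgeR gave 0.50 with an adjusted p = 0.0829, so DVL2 was not called. Without shscramble replicate 2 edgeR called it (adjusted p = 0.00618). DVL3 lay between 19.2 and 23.1 FPKM in shscramble and between 24.0 and 26.1 FPKM in shMETTL1, without overlap and without a call (adjusted p = 0.49 by limma and 0.412 by edgeR). DVL2 made up 26.2 ± 3.90% of the summed Dishevelled FPKM in shscramble and 35.8 ± 4.77% in shMETTL1, with no overlap between the groups.

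The casein kinases that phosphorylate Dishevelled, LRP6 and other pathway proteins were abundant, and none was called. CSNK1E measured 52.0, 69.2 and 59.0 FPKM in shscramble and 64.0, 63.0 and 51.1 FPKM in shMETTL1. CSNK1D ranged from 42.4 to 63.3 FPKM and CSNK1G1 from 10.6 to 13.8 FPKM, and the groups overlapped for all 3 kinases. Their adjusted p lay between 0.859 and 0.994 by limma and between 0.583 and 0.952 by edgeR. CSNK1G1 shares 1582 exon bases with an unnamed gene on the same strand, so its level is uncertain.

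In the destruction complex 0 of 5 members were called by limma or edgeR, with 0 of 5 at an unadjusted p under 0.05 by limma and 2 of 5, AXIN1 and GSK3A, by edgeR, where 23% of all genes had such a p. AXIN1, the scaffold that limits the amount of the complex, measured 6.66, 7.50 and 7.43 FPKM in shscramble and 9.50, 10.4 and 9.27 FPKM in shMETTL1. All knockdown libraries exceeded all controls, with a log2 difference of 0.41 (SE 0.20, adjusted p = 0.394) by limma and 0.36 (adjusted p = 0.195) by edgeR. GSK3A, the less abundant of the GSK3 kinases, lay between 8.91 and 15.2 FPKM in shscramble and between 15.5 and 18.3 FPKM in shMETTL1, also without overlap and with an adjusted p = 0.367 by limma and 0.178 by edgeR. GSK3A was called by edgeR only without shscramble replicate 2 (adjusted p = 0.0385). GSK3B, which phosphorylates beta-catenin, measured 55.8, 94.6 and 66.5 FPKM in shscramble and 65.2, 73.2 and 71.6 FPKM in shMETTL1. CSNK1A1, the kinase that primes beta-catenin, measured 77.3, 86.3 and 80.6 FPKM in shscramble and 74.2, 81.2 and 82.9 FPKM in shMETTL1. For both kinases the groups overlapped, and neither was called (adjusted p by limma 0.984 for GSK3B and 0.929 for CSNK1A1). APC, the second scaffold, ranged from 8.52 to 13.1 FPKM with overlap. GSK3A made up 14.2 ± 0.78% of the summed GSK3 FPKM in shscramble and 19.2 ± 1.16% in shMETTL1, whereas in estimated counts the ratio of GSK3B to GSK3A overlapped between the groups.

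**Figure D5:**
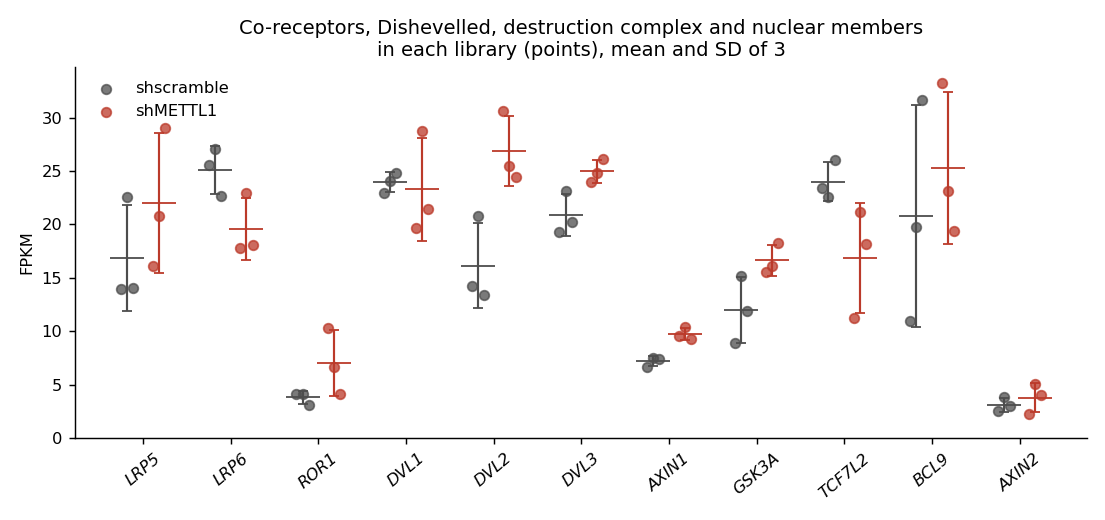
FPKM of 11 co-receptors, transducers and nuclear members in each shscramble (grey) and shMETTL1 (red) library, with the mean and SD of 3. The groups separate for DVL2, DVL3, AXIN1, GSK3A and TCF7L2, and none of the 11 was called by limma or edgeR with all 6 libraries.

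CTNNB1, the gene of beta-catenin, measured 55.6, 71.2 and 67.3 FPKM in shscramble and 72.7, 73.6 and 66.5 FPKM in shMETTL1. The groups overlapped and it was not called (adjusted p = 0.699 by limma and 0.598 by edgeR). mRNA levels do not report the stability or place of the protein, through which this pathway acts. CTNNBIP1, an inhibitor of the binding of beta-catenin to TCF factors, ranged from 10.7 to 14.9 FPKM with overlap.

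LEF1 was the most abundant TCF/LEF factor by FPKM and the most abundant of the 50 members. It measured 116, 106 and 99.0 FPKM in shscramble and 100.5, 118 and 103 FPKM in shMETTL1, with overlap, and the adjusted p was 0.996 by limma and 0.743 by edgeR. TCF7L2 (ENSG00000148737, chr10:112950250-113167678 in GENCODE v29 on GRCh38), the only other TCF factor above 2 FPKM, measured 23.4, 22.5 and 26.0 FPKM in shscramble and 11.2, 21.2 and 18.1 FPKM in shMETTL1. Its knockdown libraries all lay below the controls, though shMETTL1 replicate 2 stood close to them. The log2 difference was -0.54 (SE 0.24), with an unadjusted p = 0.0475 and an adjusted p = 0.349 by limma, and edgeR gave -0.29 with an adjusted p = 0.344. In estimated counts the TCF7L2 groups overlapped. LEF1 took 81.3 ± 1.88% of the summed TCF/LEF FPKM in shscramble and 86.3 ± 3.08% in shMETTL1. TCF7 reached at most 1.25 FPKM and TCF7L1 at most 0.0873 FPKM, and TCF7 shares exon bases with SKP1, a gene at a mean of 224 FPKM on the opposite strand.

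Among the cofactors of beta-catenin, BCL9L measured 63.4, 65.8 and 39.3 FPKM in shscramble and 54.3, 23.7 and 66.1 FPKM in shMETTL1. Its low values fell in shscramble replicate 3 and shMETTL1 replicate 2, the groups overlapped, and the adjusted p was 0.723 by limma. BCL9, which links beta-catenin to the PYGO proteins, ranged from 11.0 to 33.2 FPKM with overlap, while its estimated counts of 262, 340 and 294 in shscramble and 371, 413 and 387 in shMETTL1 did not overlap. BCL9 was not called by edgeR (log2 difference 0.34, adjusted p = 0.1), except without shscramble replicate 2 (adjusted p = 0.0267). PYGO2, which reads histone methylation, lay between 9.47 and 14.3 FPKM and shares exon bases with SHC1, a gene at 95.4 FPKM. TLE3, a co-repressor of TCF factors, measured 49.5, 76.9 and 49.6 FPKM in shscramble and 61.0, 67.5 and 66.7 FPKM in shMETTL1, and TLE1 ranged from 12.1 to 21.1 FPKM. Both overlapped between the groups, with adjusted p by limma of 0.699 for TLE3 and 0.454 for TLE1.

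The feedback targets, which beta-catenin and TCF factors switch on in many tissues and which then restrain the pathway, were low, and 4 of 7 could be tested. Of these, 0 were called by limma or edgeR, and 0 had an unadjusted p under 0.05 by either tool. APCDD1, a membrane inhibitor of WNT binding, was the most abundant at 6.26, 7.82 and 4.73 FPKM in shscramble and 2.28, 2.91 and 8.23 FPKM in shMETTL1. The lowest and the highest of its values were both in the knockdown group, and the adjusted p was 0.539 by limma. AXIN2, widely used as a readout of beta-catenin activity, measured 2.55, 3.82 and 2.98 FPKM in shscramble and 2.27, 5.02 and 4.06 FPKM in shMETTL1. These AXIN2 values overlapped, while its estimated counts of 31.8, 29.5 and 25.1 in shscramble and 36.7, 45.5 and 40.1 in shMETTL1 did not, and neither limma (adjusted p = 0.817) nor edgeR (adjusted p = 0.403) called a difference. NKD1, a Dishevelled-binding inhibitor, ranged from 1.76 to 4.89 FPKM with overlap, and its relative NKD2 lay between 1.73 and 2.31 FPKM in shscramble and between 2.96 and 4.16 FPKM in shMETTL1. The NKD2 groups did not overlap, yet the adjusted p was 0.397 by limma and 0.369 by edgeR. NOTUM, which removes the lipid from WNT proteins, reached at most 0.375 FPKM, SP5 was above 0 only in shscramble replicate 2 at 0.218 FPKM, and the secreted LRP6 antagonist DKK1 was listed at 0 in all 6 libraries.

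SP5 and DKK1 are shown because, among feedback members with a promoter window, their windows hold the letters that TCF and LEF factors bind. These letters are CTTTGAT or CTTTGAA on either strand, and the transcripts of SP5 and DKK1 were at or near 0. The feedback members AXIN2, NKD1 and NOTUM had no window here, so the letters could not be looked for in them. The capitals mark these letters, and 20 bases are given on each side. The SP5 stretch lies at chr2:170715169-170715279 on the plus strand of GRCh38.p14 with 3 matches, and the DKK1 stretch lies at chr10:52314166-52314212 on the plus strand with 1 match. CSNK1G1 was the third member with a match, so that 3 of 49 member windows held the letters, against 4.12% of the windows of genes tested and 6.86% of all windows.
SP5: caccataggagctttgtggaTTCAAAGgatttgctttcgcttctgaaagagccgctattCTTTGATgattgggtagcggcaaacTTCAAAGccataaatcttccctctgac
DKK1: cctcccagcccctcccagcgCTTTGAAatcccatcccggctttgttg

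Set side by side, the roles had medians of the log2 fold change by limma between -0.16 for the feedback targets and 0.35 for the ligands and their export. The receptors and co-receptors had a median of -0.07, with 6 positive and 6 negative values, and the widest range, from -1.20 for FZD6 to 0.73 for ROR1. The destruction complex had a median of 0.24 with 3 positive and 2 negative values, and beta-catenin and its nuclear partners a median of 0.14 with 7 positive and 2 negative values. The Dishevelled and casein kinase genes had a median of 0.04 and the genes of receptor turnover a median of 0.09. All members that edgeR called were receptors, 4 of 11 receptors tested, and 0 of 31 in the other roles, where 6.94% of all genes were called, and no test was run between the roles. The receptors called numbered 1 without shscramble replicate 3, shMETTL1 replicate 1 or shMETTL1 replicate 2, and without shscramble replicate 2 the called members included BCL9, DVL2 and GSK3A. The summed FPKM of all 50 members was 962 ± 83.0 in shscramble and 976 ± 17.1 in shMETTL1 (SD of 3 libraries), and the groups overlapped.

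A further 142 genes of the pathway, listed by role outside the 50, gave 0 of 91 calls by limma and 1 of 84 by edgeR, where 6.94% of all genes were called. Of the 142, 141 were found in the tables, and at an unadjusted p under 0.05 limma found 4 of 91, against 14.2% of all genes, while edgeR found 9 that were higher and 3 that were lower among 84, against 23% of all genes. The called gene was VEGFA, an angiogenic factor that has been reported as a WNT target and responds to many other signals. VEGFA measured 46.7, 34.5 and 34.8 FPKM in shscramble and 74.4, 88.5 and 80.1 FPKM in shMETTL1, without overlap (edgeR adjusted p = 7.62e-07, limma adjusted p = 0.0589). Of the other 17 WNT ligands 7 could be tested by limma and 8 were at 0 in all libraries, and none of those tested was called by limma or edgeR. The lists of secreted modulators (6 of 23 tested by limma), other receptors (4 of 8), other destruction complex and ubiquitin genes (24 of 27), other nuclear factors (21 of 24) and the planar polarity branch (15 of 20) likewise gave no call by limma or edgeR with all 6 libraries. Without shscramble replicate 2, edgeR called 11 of the 84 genes and limma 2 of the 91, VEGFA among them in both, while each of the other 5 fits without a library gave VEGFA alone by edgeR and 0 by limma.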

How the data were processed

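RNA of 3 shscramble and 3 shMETTL1 libraries had been sequenced, and the tools that the submitters list in their processing notes are cutadapt 1.9.3, HISAT2 2.0.4, Cufflinks and Cuffdiff, with hg19 as the genome build. The FPKM values deposited by the authors, 1 per gene and library, are levels per transcript length. Estimated counts were also deposited by the authors, of which 1.80% to 2.51% were whole within 0.001, and the count per FPKM of FZD4 differed by a factor of 1.00 at most between libraries, as after scaling to a common depth, so the read depth is unknown and no counting interval was computed. No library pair held identical counts. Identifiers were paired with symbols for 95.7% of genes.

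The members, gene lists and tests were chosen with earlier results of these data known, and no list was tested as a set. The 12156 genes with a mean of at least 0.5 FPKM were compared by limma 3.58.1 in R 4.3.3 on log2(FPKM + 0.5), with the trend and robust options, a scale that understates changes of low genes. Estimated counts were rounded and tested by the quasi-likelihood test of edgeR 4.0.16 (TMM, filterByExpr, robust) over 11248 genes. This test is made for unscaled read counts. As the counts here look scaled, its p-values, including those of the Frizzled receptors, are approximate. Tests were two-sided, and p-values were adjusted by the Benjamini-Hochberg method over all genes tested, with calls at an adjusted p under 0.05. Both fits were also run on simulated counts with a fixed length per gene. That setting leaves out the gene-specific changes in count per FPKM seen here, so it cannot show how the fits behave under them. A separate count used the study's thresholds, an unadjusted p under 0.05 and a fold above 1.5. All members are named. Values in every library are given for members with an unadjusted p under 0.05 by limma or a call by edgeR and for the most abundant member of each role and family, and further members whose groups did not overlap or that an alternative called were added after their values were seen. Other pathway genes are named only where called. Alternatives comprised pseudocounts of 0.1 and 1, other filters and scalings, DESeq2 1.42.0, limma on log2 CPM with a prior count of 2, a replicate block and leaving out each library. Promoter windows (RefSeq, GRCh38.p14) were found for 37 of 50 members, and none for WNT7B, LRP6, FZD2, FZD3, FZD6, FZD7, ZNRF3, LGR5, CSNK1D, BCL9L, AXIN2, NKD1 and NOTUM. Exon overlaps come from GENCODE v29, and only some of them are given above. For example, CSNK1A1 shares 2886 exon bases with AC021078.1 and CSNK1E shares 1316 with TPTEP2-CSNK1E, both on the same strand. Near-identical copies, such as that of CSNK1A1, could also share reads.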

Additional observations from a re-analysis of the deposited data

How the results depend on the processing

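With 3 libraries per group and unknown read depth, small differences of low genes such as NKD2 or AXIN2 could not be resolved. The number of members called by limma was 0 in the 6 alternatives of pseudocount, filter and scaling, and lay between 0 and 1 when a library was left out, the 1 being FZD6 without shscramble replicate 2. By edgeR the same 4 members, FZD3, FZD4, FZD5 and FZD6, were called with RLE size factors, without a count filter, with DESeq2 and with limma on log2 CPM. Leaving out a library gave between 1 and 8 members by edgeR. FZD6 was alone without shscramble replicate 3, shMETTL1 replicate 1 or shMETTL1 replicate 2, FZD4 and FZD6 remained without shMETTL1 replicate 3, and FZD3, FZD4 and FZD6 remained without shscramble replicate 1. Without shscramble replicate 2, BCL9, DVL2, GSK3A and LRP6 joined the 4. Over all genes edgeR called between 299 and 2172 when a library was left out, against 781, and limma between 3 and 189, against 15; the highest counts were those without shscramble replicate 2, limma called 4 without the FPKM filter, and the cause was not tested. The median log2 fold change of the members stayed between 0.03 and 0.15. Leaving out a library turned the direction of 12 of 43 members by limma and of 7 of 42 by edgeR in at least 1 fit. With all libraries edgeR called 0 of its 7. Limma called 0 members with all libraries, so its 12 could include none that it called. FZD3, which edgeR called, was among the 12 that turned by limma. By limma, the log2 difference of FZD3 lay between -0.614 and 0.083 (adjusted p = 0.949 at the highest, without shscramble replicate 3) and that of BCL9 between -0.022 and 0.722 (adjusted p = 0.987 at the lowest, without shscramble replicate 1).

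The replicate numbers are shared by the groups, but same-numbered libraries did not deviate together (correlations of 0.00, 0.05 and -0.02 over genes), so the numbers were not taken as pairs. With the replicate block limma called 0 members and edgeR called 4, the study's thresholds held 4 members instead of 3, the median was 0.09, and over all genes limma called 6 and edgeR 1068.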

Other observations

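The estimated counts and the FPKM values of several members did not move together over the libraries. The count per FPKM, which would be constant if the same transcript length applied in each library, varied by a median factor of 1.37 between the highest and the lowest library over the 43 members tested, and by more than 1.5 in 17 of them. It varied most for WNT5A, from 6.07 in shMETTL1 replicate 1 to 25.8 in shMETTL1 replicate 2. For BCL9L it was 21.9 in shMETTL1 replicate 2, the library with the lowest FPKM of that gene, and 6.93 to 9.15 in the other 5. FZD1, FZD4, FZD5, FZD7 and PYGO2 varied by a factor of at most 1.01. Of the 42 members with both fits, 35 had the same sign of the log2 fold change by limma on FPKM and by edgeR on counts. The 7 with opposite signs were WNT5A, WLS, CSNK1G1, APC, GSK3B, LEF1 and BCL9L, and none of them was called by either tool. FZD6, FZD4 and FZD5 had log2 differences within 0.03 of each other between the fits, while FZD3 differed by 0.35. The cause of these differences was not tested.

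PRSS23, which overlaps FZD4 on the opposite strand, measured 1.62, 4.42 and 2.75 FPKM in shscramble and 3.94, 8.91 and 3.08 FPKM in shMETTL1, and the groups overlapped. It was called neither by limma (adjusted p = 0.489) nor by edgeR (adjusted p = 0.158), and its part in the difference of FZD4 was not tested.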
